A study of Homo sapiens with 12 samples.

Results

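The metallothioneins described here are the 8 genes *MT1A*, *MT1E*, *MT1F*, *MT1G*, *MT1H*, *MT1M*, *MT1X* and *MT2A*, taken by symbol from a deposited table of 23346 genes. All 8 symbols had a row in the table, 7 had a value above 0 in at least 1 sample, and *MT1H* was listed at 0 in all 12 samples. The RNA came from 2 established human pancreatic adenocarcinoma lines, SW1990 and CFPAC-1, after cell sorting with the GCTM-5 antibody into strongly stained (positive) and unstained (negative) cells. There were 3 samples in each of the 4 groups, SW1990 negative, SW1990 positive, CFPAC-1 negative and CFPAC-1 positive. No group received a treatment beyond culture, enzymatic dissociation and staining, which all groups shared. Each line is 1 line from 1 tumour, and the study describes the samples as coming from triplicate sorts. Whether the sorts used separate cultures is not stated, so that p-values measure the spread between these samples, which may be technical.

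Metallothioneins are small, cysteine-rich proteins that bind zinc, copper and cadmium and buffer the free metal of the cell. Their genes are induced by zinc and cadmium through the zinc-sensing transcription factor MTF1, which binds metal response elements near the start of the genes, and several of them, *MT2A* among these, also respond to glucocorticoids and to stress. The human *MT1* genes and *MT2A* lie side by side on chromosome 16. *MT2A* is a widely expressed member, whereas *MT1G*, *MT1H* and *MT1M* are restricted to fewer tissues.

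In the GENCODE 44 annotation of GRCh37 the 8 genes ran along chromosome 16 in the order *MT2A* (chr16:56642496-56643409), *MT1E* (chr16:56659387-56661024), *MT1M* (chr16:56666571-56667893), *MT1A* (chr16:56672578-56673999), *MT1F* (chr16:56691643-56694610), *MT1G* (chr16:56700642-56701977), *MT1H* (chr16:56703726-56705041) and *MT1X* (chr16:56716382-56718108). *MT1G* lay on the minus strand and the other 7 on the plus strand, and each gene had 3 exons. The values below are sums over the exons of a gene. Each of the 8 had a transcript with a coding sequence of 186 bases, stop codon included, which was the one used, and over the 28 pairs of members the identity of these sequences ran from 88.7% for *MT1F* and *MT1X* to 95.2% for *MT1G* and *MT2A*. The coding sequences of the 4 members on which the results turn are printed 5′ to 3′ from the GENCODE transcripts, to show how alike the reads of these genes are. Capitals mark bases that differ from *MT2A*, 14 in *MT1E*, 14 in *MT1X* and 19 in *MT1M*.
MT2A: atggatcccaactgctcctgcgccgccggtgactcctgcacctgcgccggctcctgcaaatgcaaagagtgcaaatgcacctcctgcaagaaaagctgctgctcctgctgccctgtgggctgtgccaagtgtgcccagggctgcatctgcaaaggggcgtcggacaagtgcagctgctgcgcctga
MT1E: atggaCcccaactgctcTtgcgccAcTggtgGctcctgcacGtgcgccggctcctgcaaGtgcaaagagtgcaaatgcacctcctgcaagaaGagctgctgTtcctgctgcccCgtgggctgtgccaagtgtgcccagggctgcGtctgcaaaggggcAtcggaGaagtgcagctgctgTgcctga
MT1X: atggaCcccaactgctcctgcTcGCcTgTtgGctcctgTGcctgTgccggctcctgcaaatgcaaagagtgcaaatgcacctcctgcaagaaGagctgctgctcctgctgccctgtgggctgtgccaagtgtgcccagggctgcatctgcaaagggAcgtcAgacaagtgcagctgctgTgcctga
MT1M: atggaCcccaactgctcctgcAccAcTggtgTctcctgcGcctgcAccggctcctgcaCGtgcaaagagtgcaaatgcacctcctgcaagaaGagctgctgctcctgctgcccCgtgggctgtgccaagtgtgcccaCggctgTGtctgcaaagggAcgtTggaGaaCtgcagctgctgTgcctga

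How far reads could be shared between copies was measured on the whole transcripts, untranslated parts included, in windows of 100 bases. No window of *MT2A*, *MT1E*, *MT1F*, *MT1A*, *MT1M* or *MT1G* occurred unchanged in a transcript of another gene. Of the windows of *MT1H*, 3.4% occurred unchanged in *MT1HL1*, a copy on another chromosome. Of the windows of *MT1X*, 22.0% were shared with a long non-coding RNA annotated at the same place and on the same strand, so that reads of the 2 cannot be told apart there. When 2 mismatches were allowed, 8.3% of the *MT2A* windows, 7.2% of the *MT1X* windows and 6.2% of the *MT1G* windows matched another of these 3 genes. The handling of reads that fit several genes is not given in the sources used here, and low values of *MT1X* and *MT1G* beside the far higher *MT2A* are uncertain to that extent.

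Promoters of 3 of the 8 members were in the RefSeq table used (GRCh38.p14), and the 250 bases before the start are printed for *MT2A* (chr16:56608334-56608583), *MT1X* (chr16:56682220-56682469) and *MT1H* (chr16:56669564-56669813), all on the plus strand. They are shown because the metal response elements through which the family is induced lie here. Capitals mark matches to the core of that element, TGCACNC or TGCGCNC, on either strand.
MT2A: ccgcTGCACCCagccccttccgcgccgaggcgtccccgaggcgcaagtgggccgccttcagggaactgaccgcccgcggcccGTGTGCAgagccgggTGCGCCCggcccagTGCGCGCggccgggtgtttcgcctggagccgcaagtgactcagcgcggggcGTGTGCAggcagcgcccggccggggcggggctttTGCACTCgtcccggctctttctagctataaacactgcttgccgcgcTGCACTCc
MT1X: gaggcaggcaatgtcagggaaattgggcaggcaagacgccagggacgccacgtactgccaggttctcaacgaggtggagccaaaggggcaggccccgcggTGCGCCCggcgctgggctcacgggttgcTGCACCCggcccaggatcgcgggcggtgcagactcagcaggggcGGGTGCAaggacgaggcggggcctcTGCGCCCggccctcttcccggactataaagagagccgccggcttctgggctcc
MT1H: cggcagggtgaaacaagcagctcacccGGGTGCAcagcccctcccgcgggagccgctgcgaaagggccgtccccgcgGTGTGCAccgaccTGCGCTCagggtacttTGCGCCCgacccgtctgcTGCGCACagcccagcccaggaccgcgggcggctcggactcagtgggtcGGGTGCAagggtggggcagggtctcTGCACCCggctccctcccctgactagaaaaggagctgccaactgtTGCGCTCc
There were 7 matches in *MT2A*, 4 in *MT1X* and 8 in *MT1H*, and no matches overlapped. Among all 35116 promoters of this length in the table, 24.8% held at least 1 match, 0.37% held at least 4, 0.031% held at least 7 and 0.017% held at least 8. A match describes the letters and is not a measured binding site. *MT1H*, with 8 matches, was listed at 0 in every sample, and *MT2A*, with 7, was the most abundant member.

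**Figure D1:**
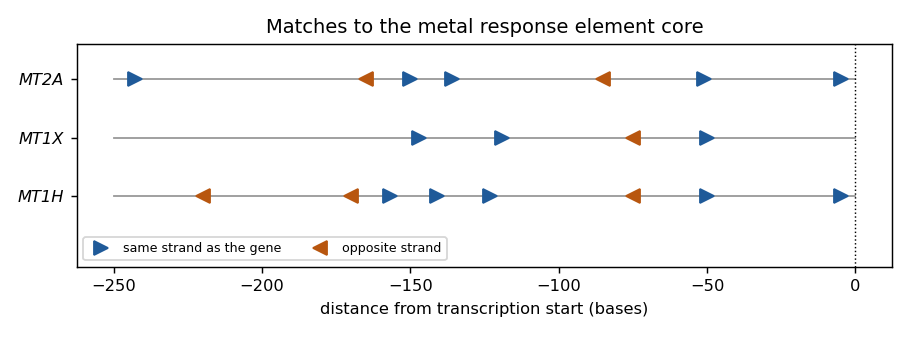
Matches to the core of the metal response element in the 250 bases before the start of *MT2A*, *MT1X* and *MT1H*. The horizontal axis is the distance of the centre of each match from the transcription start in bases, and arrowheads give the strand. Each of the 3 genes had a match on its own strand 50 or 51 bases before the start, and *MT2A* and *MT1H* had a further match centred 5 bases before it.

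Values are RPKM, reads scaled to gene length and to library size. This scaling leaves shifts shared by many genes in place, and the median of all genes is given beside the comparisons for that reason. The annotation counted is not given in the sources used here, so that comparisons of level between genes are approximate. Library totals, recovered from the values, were 16973802 to 23277139 reads in the 6 SW1990 samples and 9969697 to 26159330 in CFPAC-1, the lowest being CFPAC-1 positive replicate 3. That library also stood apart in the balance of *MT2A* and *MT1E* described below, and values that turn on it are given without it too. The 6 epithelial markers had reads in all samples. Their summed RPKM was 1595 to 1942 in SW1990 negative, 4360 to 4841 in SW1990 positive, 5411 to 6173 in CFPAC-1 negative and 6676 to 8162 in CFPAC-1 positive cells. Among them, *EPCAM* and *CDH1* had mean RPKM of 21.7 and 12.6 in SW1990 negative, against 176.0 and 102.4 in SW1990 positive cells. In SW1990, 5 of the 6 markers were called higher in positive cells, beside 4.59% of all genes. The summed RPKM of 6 fibroblast markers was 12.6 to 22.6 in SW1990 negative, 3.90 to 4.86 in SW1990 positive and 1.26 to 2.39 in CFPAC-1 cells, with at most 1 read of *DCN* in any sample. That of 4 endothelial markers was 14.8 to 18.8 in SW1990 negative, 1.48 to 2.05 in SW1990 positive and 0.751 to 1.49 in CFPAC-1 cells. That of 5 leukocyte markers was 34.6 to 48.6, 15.4 to 33.0 and 111.5 to 166.8 in the same order, almost all from *CD14* and *CD68*, and *PTPRC*, which marks all leukocytes, had at most 3 reads. In SW1990 negative cells most of the fibroblast sum came from *LUM* (mean RPKM 13.2) and most of the endothelial sum from *CDH5* (15.6). *COL1A1* and *PDGFRB* had means of 3.57 and 1.76 there, against 1.93 and 0.0381 in SW1990 positive cells. *COL1A2* had at most 5 reads in any sample and *THY1* had none. In SW1990 negative cells *PECAM1* and *VWF* had means of 0.717 and 0.202, and *KDR* had no read. *KDR* was higher in CFPAC-1 negative cells (0.878).

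*MT2A* made up most of the metallothionein RNA in every group and *MT1E* nearly all of the rest. Together they held 96.2% to 98.2% of the summed RPKM of the members in all 12 samples. The summed RPKM of the 8 members was 499.6, 513.2 and 660.8 in SW1990 negative cells in ascending order, and 294.6, 342.7 and 398.9 in SW1990 positive cells, so that the populations of SW1990 did not overlap. It was 476.9, 528.1 and 630.5 in CFPAC-1 negative and 547.2, 574.9 and 690.9 in CFPAC-1 positive cells, where the ranges overlapped. In bulk RNA, fewer cells that express a gene and less RNA of it per cell cannot be told apart.

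*MT2A* was among the 190 most abundant genes in every sample, and ranked 53 in the sample where it was highest. In SW1990 negative cells its RPKM was 407.5, 524.9 and 393.5 in replicates 1, 2 and 3, and in SW1990 positive cells it was 294.2, 218.5 and 252.0. All 3 positive samples were below all 3 negative ones. In CFPAC-1 negative cells the RPKM was 485.5, 367.1 and 408.0, and in CFPAC-1 positive cells 418.4, 503.1 and 428.3, with overlapping ranges. Between 1554 and 5119 reads lay behind each of these 12 values. By group mean ± SD (n = 3) the order was CFPAC-1 positive (449.9 ± 46.3), SW1990 negative (441.9 ± 72.2), CFPAC-1 negative (420.2 ± 60.1) and SW1990 positive (254.9 ± 37.9), and the first 3 of these differed by less than their SD. SW1990 positive cells stood below each of the other groups by more than the SDs.

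*MT1E*, the next most abundant member, encodes another of the widely expressed isoforms. Its RPKM was 96.5, 121.0 and 87.0 in SW1990 negative and 95.6, 68.4 and 78.2 in SW1990 positive cells. In CFPAC-1 it was 129.9, 96.9 and 103.8 in negative and 142.9, 172.3 and 103.1 in positive cells. The populations overlapped in both lines. Group means ± SD (n = 3) ran from 80.7 ± 13.8 in SW1990 positive through 101.5 ± 17.5 in SW1990 negative and 110.2 ± 17.4 in CFPAC-1 negative to 139.4 ± 34.8 in CFPAC-1 positive cells, with 520 to 1891 reads per sample. The step from SW1990 positive to SW1990 negative cells was larger than either SD but did not pass the test given below, and the other steps were smaller than the larger SD.

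**Figure D2:**
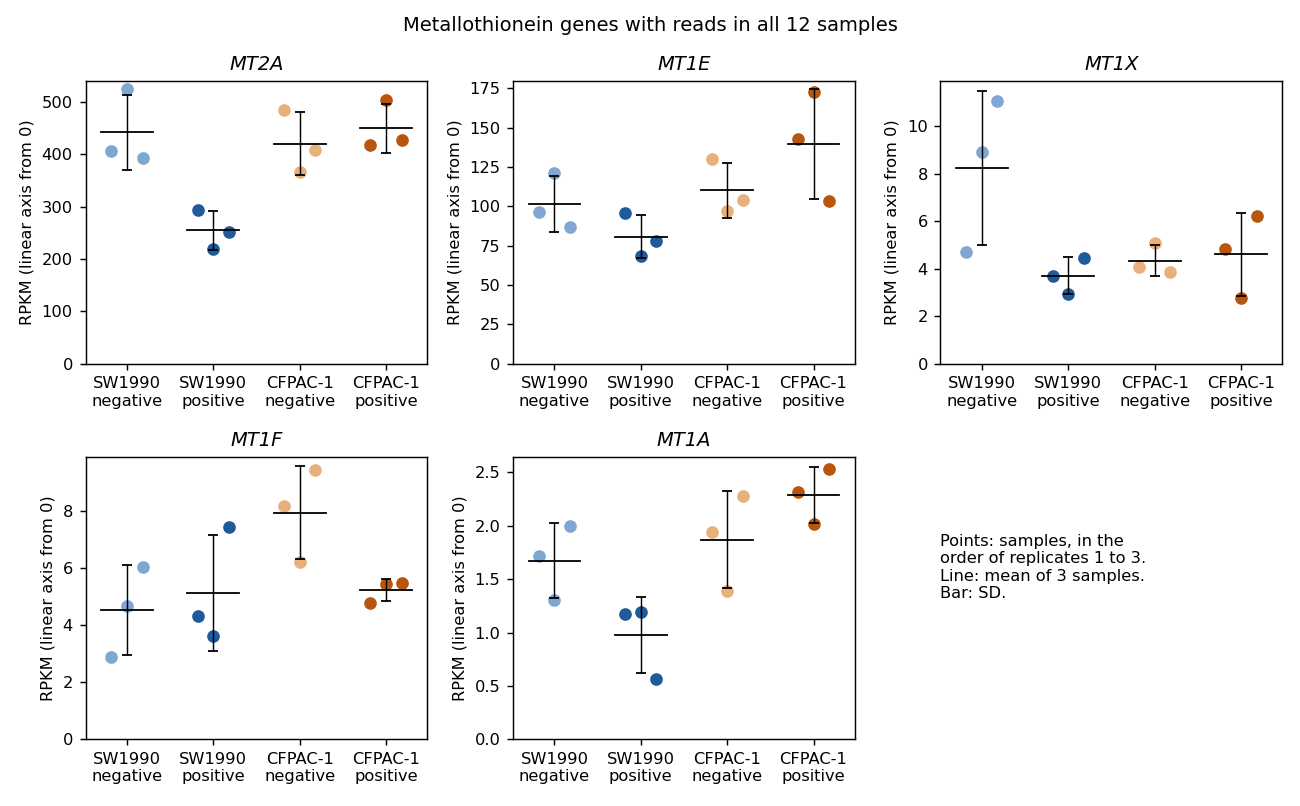
RPKM of the 5 metallothionein genes with reads in all 12 samples, by group. Each point is a sample, and lines with bars are the mean and SD of 3. In *MT2A* and *MT1X* the SW1990 positive samples all lie below the SW1990 negative ones, whereas the CFPAC-1 populations overlap.

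*MT1X* and *MT1F*, further isoforms of the MT1 group, were present far below *MT2A* and *MT1E*. *MT1X* RPKM was 4.70, 8.93 and 11.1 in SW1990 negative and 3.70, 2.92 and 4.47 in SW1990 positive cells. The 3 positive samples were lower than the 3 negative ones, although the negative samples spread over more than 2-fold. In CFPAC-1 it was 4.07, 5.09 and 3.85 in negative and 4.83, 2.77 and 6.21 in positive cells, where the positive range contained the negative one. *MT1F* RPKM was 2.87, 4.68 and 6.03 in SW1990 negative and 4.33, 3.61 and 7.42 in SW1990 positive cells, which overlapped. In CFPAC-1 it was 8.15, 6.22 and 9.44 in negative and 4.77, 5.44 and 5.46 in positive cells, which did not. These values rested on 20 to 84 reads of *MT1X* and 24 to 83 of *MT1F* per sample.

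*MT1A* was low throughout, with 4 to 24 reads per sample. Its RPKM was 1.72, 1.30 and 2.00 in SW1990 negative and 1.17, 1.19 and 0.570 in SW1990 positive cells, without overlap. It was 1.95, 1.39 and 2.28 in CFPAC-1 negative and 2.32, 2.02 and 2.53 in CFPAC-1 positive cells, with overlap. At these counts a single sample is imprecise, the lowest value standing for 4 reads.

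*MT1M* and *MT1G* had no read in any of the 6 SW1990 samples. For *MT1M* a count of 0 allows up to 3 reads per library, a mean of 0.337 RPKM in SW1990 negative and 0.379 in SW1990 positive cells. In CFPAC-1 *MT1M* had an RPKM of 0.934, 0.208 and 0.456 in negative cells, from 8, 2 and 4 reads, and of 1.74, 4.00 and 1.14 in positive cells, from 20, 33 and 5 reads. The CFPAC-1 positive samples were all above the negative ones. *MT1G* was above 0 only in CFPAC-1 negative replicate 3 (0.253 RPKM), CFPAC-1 positive replicate 2 (1.35) and CFPAC-1 positive replicate 3 (0.507). These correspond to 1, 5 and 1 reads if the gene length counted was 198 bases, the smallest that gives whole reads, and to a common multiple of them otherwise. *MT1H* was listed at 0 in all samples, and with no read its length in the table is unknown, so that no limit can be set in RPKM.

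Of 8 further metallothionein genes and pseudogenes looked up, *MT1B*, *MT3*, *MT4*, *MT1IP* and *MT1JP* were at 0 in all 12 samples, *MT1DP* had 0 to 7 reads, and *MT1CP* had no row. The pseudogene *MT1L* (chr16:56651475-56652592), between *MT2A* and *MT1E*, followed the lines. It had no read in any SW1990 sample, against 30.6, 19.7 and 18.7 RPKM in CFPAC-1 negative and 28.8, 29.6 and 24.5 in CFPAC-1 positive cells, from 104 to 321 reads. Counting 3 reads per SW1990 library, it was at least 66.1-fold lower in SW1990 than in CFPAC-1 negative cells and at least 70.6-fold lower among positive cells. All of its annotated transcript is shared with a long non-coding RNA on the same strand, so that the reads may belong to either. The 3 genes with reads in CFPAC-1 and none in SW1990, *MT1M*, *MT1G* and *MT1L*, were thus interspersed along the chromosome with *MT2A*, *MT1E*, *MT1A*, *MT1F* and *MT1X*, which had reads in every sample of both lines. *MT1G* was also at 0 in several CFPAC-1 samples. Counting 3 reads per SW1990 library and 198 bases, its ratio of CFPAC-1 to SW1990 among positive cells was 0.732, so that no difference between lines is shown for it.

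**Figure D3:**
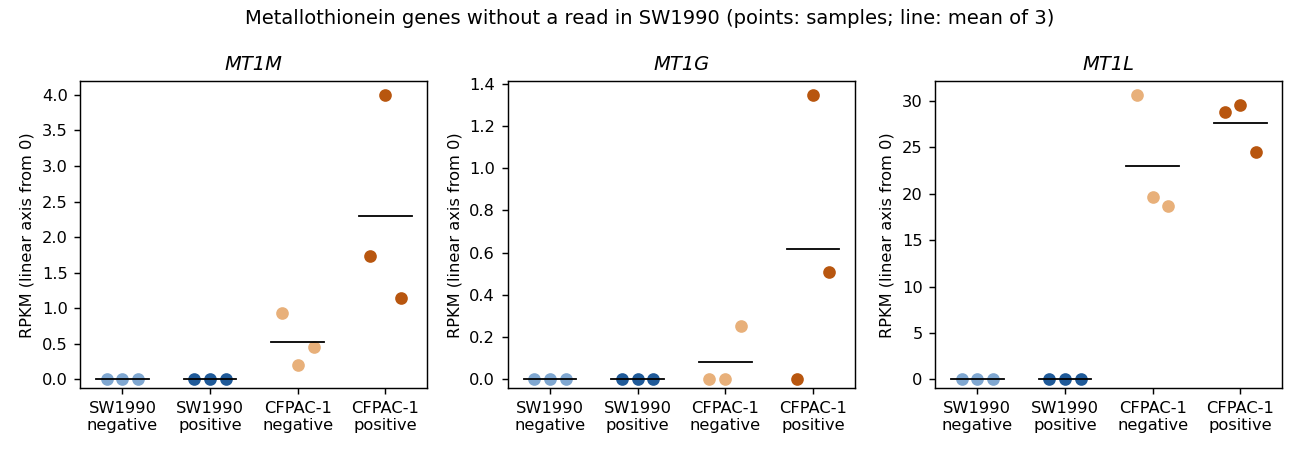
RPKM of *MT1M*, *MT1G* and the pseudogene *MT1L* by group, on linear axes with a separate scale for each gene. Points are samples and lines are means of 3. All 6 SW1990 samples are at 0 for each gene, and *MT1L* lies between 18.7 and 30.6 RPKM in CFPAC-1.

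The comparison of sorted populations within a line addresses how GCTM-5 positive cells differ from negative ones. In SW1990, *MT2A* and *MT1X* were lower in positive cells, and no member was higher. *MT2A* fell by 0.79 on the log2 scale (SE 0.15, adjusted p = 0.00198 with limma), or 1.73-fold, which is under the 2-fold limit set for a call. The adjusted p stayed between 0.00056 and 0.0203 in all 24 alternatives, so the direction did not rest on 1 library. Of the 24, the other call rule and the ratio of mean RPKM keep the p of the main fit. *MT1X* fell by 1.07 (SE 0.33, adjusted p = 0.0292), or past 2-fold with an unadjusted p of 0.00699, and was the 1 member called of the 7 tested. Over all 16236 genes tested, 12.1% were called, 4.59% higher and 7.48% lower, so that 1 of 7 is close to the share of all genes. The call of *MT1X* was lost without any 1 of SW1990 negative replicates 2 or 3 (-0.97 and -0.82, adjusted p of 0.0903 and 0.128), SW1990 positive replicates 1 or 2 (-1.08 and -0.91, adjusted p of 0.0665 and 0.0985) or CFPAC-1 negative replicate 1 (-1.07, adjusted p = 0.0404). It was also lost with a replicate block (-1.07, unadjusted p = 0.0102 and adjusted p = 0.0408 with limma) and in 5 other settings given in the closing section, and it held in 13 of the 24 alternatives.

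*MT1A* gave -0.76 (SE 0.28, adjusted p = 0.0599), *MT1E* gave -0.33 (SE 0.20, adjusted p = 0.246) and *MT1F* gave 0.17 (SE 0.29, adjusted p = 0.721), all by limma, and none passed the test. *MT1M* and *MT1G*, without a read in either population, have no change to measure. The median was -0.33 over the 7 members tested, which include these 2 at no change, beside -0.04 for all genes. Over the 5 with reads in every sample it was -0.76, and 4 of the 5 estimates were below 0. By an adjusted p under 0.05 alone, 2 of 7 members passed, both lower, against 28.2% of all genes. The epithelial sum given above was higher, and the fibroblast, endothelial and leukocyte sums were lower, in all 3 SW1990 positive samples than in any negative one, and their part in the lower *MT2A* and *MT1X* was not tested.

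In CFPAC-1, *MT1M* rose in positive cells and no other member passed the test. Its change was 1.91 on the log2 scale (SE 0.46, adjusted p = 0.00759 with limma), between group means of 0.533 ± 0.369 and 2.29 ± 1.51 RPKM (SD, n = 3), and 1 of 7 members was thus called beside 9.78% of all genes, 5.65% higher and 4.13% lower. By an adjusted p under 0.05 alone it was again 1 of 7, beside 36.5% of all genes. The SE and p of *MT1M* pool the spread of all 4 groups, and the 6 SW1990 samples, all at 0, add none. They therefore understate its spread within CFPAC-1. The call was lost when the CFPAC-1 groups were fitted alone (adjusted p = 0.0649 with limma). The same pooling applies to *MT1G* in every comparison. *MT2A* gave 0.10 (SE 0.15, adjusted p = 0.633) and *MT1X* gave 0.02 (SE 0.33, adjusted p = 0.976), the latter below 0 after median centring (-0.08), quantile normalization (-0.07) or voom (-0.03). *MT1F*, whose populations did not overlap, gave -0.58 (SE 0.29, adjusted p = 0.139), and *MT1A* gave 0.30 (SE 0.28, adjusted p = 0.429). *MT1E* gave 0.32 (SE 0.20, adjusted p = 0.225), and 0.52 with an adjusted p of 0.0448 without CFPAC-1 positive replicate 3. *MT1G* gave 1.54 (SE 0.79, adjusted p = 0.145), and 2.62 with an adjusted p of 0.00617, past the call, without CFPAC-1 positive replicate 1. Without CFPAC-1 positive replicate 2, which held 5 of its reads, it gave 0.69 (adjusted p = 0.485), and without CFPAC-1 negative replicate 3 it gave 2.15 (adjusted p = 0.0765). The median was 0.30 over the 7 members tested and 0.10 over the 5 with reads in every sample, which leave out *MT1M* and *MT1G*, beside 0.05 for all genes.

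Whether the change between populations differed between the lines was tested as an interaction. The *MT2A* change was 0.90 lower in SW1990 than in CFPAC-1 on the log2 scale (a difference of -0.90, SE 0.22, adjusted p = 0.00943 with limma). It was called at an adjusted p under 0.05 in each of the alternatives run on it except the stricter rule of over 2-fold and p under 0.01, the highest adjusted p being 0.041 after median centring. *MT1M* also passed (-1.91, adjusted p = 0.0491), but SW1990 had no read of it in either population, which lowers its pooled SE. That call was lost in most alternatives. With 2 of 7 members called, the share is near the 26.9% of all genes called by the same test, of which 9.16% were higher and 17.8% lower. *MT1X* (-1.09, adjusted p = 0.104), *MT1A* (-1.06, adjusted p = 0.0649), *MT1E* (-0.65, adjusted p = 0.105) and *MT1F* (0.75, adjusted p = 0.202) were not called. *MT1E* passed at -0.85 (adjusted p = 0.0232) without CFPAC-1 positive replicate 3, and *MT1X* passed without SW1990 negative replicate 1 (-1.44, adjusted p = 0.0254) or without CFPAC-1 positive replicate 2 (-1.41, adjusted p = 0.0313). The median of all genes was itself -0.15 in this comparison, and it was not subtracted from the members' differences given here. Across the alternatives the *MT2A* difference ran from -1.004 to -0.747.

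**Figure D4:**
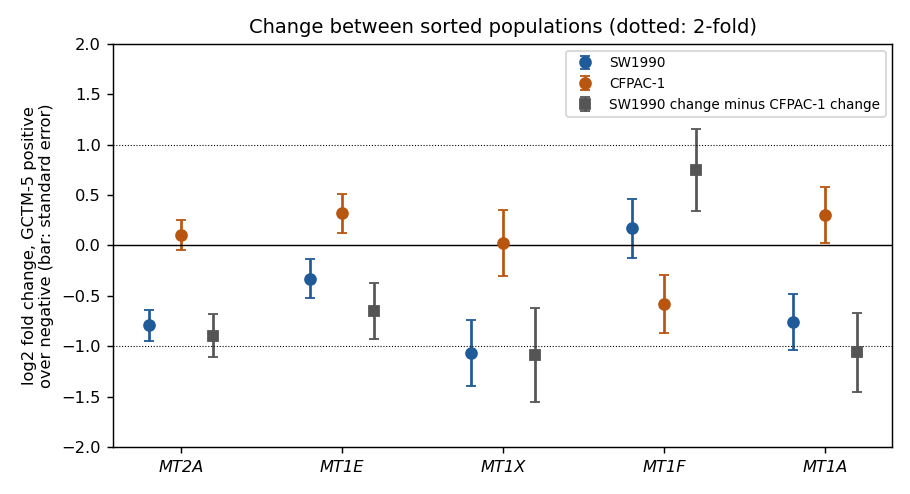
Change between positive and negative cells of each line for the 5 metallothionein genes with reads in all samples, as a log2 fold change of RPKM plus 0.1 with its standard error, with the SW1990 change minus the CFPAC-1 change as squares. *MT2A* and *MT1X* are at -0.79 and -1.07 in SW1990, and at 0.10 and 0.02 in CFPAC-1.

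The balance of *MT2A* and *MT1E* within a sample does not depend on library size. The ratio of their RPKM was 4.23 to 4.52 in SW1990 negative cells and 3.08 to 3.22 in SW1990 positive cells, so that *MT1E* took a larger part in all 3 positive samples. The mean log2 ratio was 0.46 lower in SW1990 positive cells (a difference of -0.46, exact 2-sided permutation p = 0.1, the smallest that 3 against 3 samples allow). In CFPAC-1 negative cells the ratio was 3.74 to 3.93. In CFPAC-1 positive cells it was 2.93, 2.92 and 4.16 in replicates 1, 2 and 3, and replicate 3 lay above the negative samples while the other 2 lay below them (a difference of -0.22, exact permutation p = 0.4). The difference was -0.39 without replicate 3 (exact permutation p = 0.2, the smallest that 2 against 3 samples allow), and -0.13 without either of the other 2 positive replicates (exact permutation p = 0.8). In reads, *MT1E* made up 22.5% of the *MT1E* and *MT2A* reads of CFPAC-1 positive replicate 3 (95% exact binomial interval 20.8% to 24.3%), 29.2% in replicate 1 (28.1% to 30.3%) and 29.3% in replicate 2 (28.1% to 30.5%). These intervals cover counting error only. The other 9 samples lay within 21.1% to 22.2% in SW1990 negative, 27.3% to 28.2% in SW1990 positive and 23.5% to 24.4% in CFPAC-1 negative cells.

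**Figure D5:**
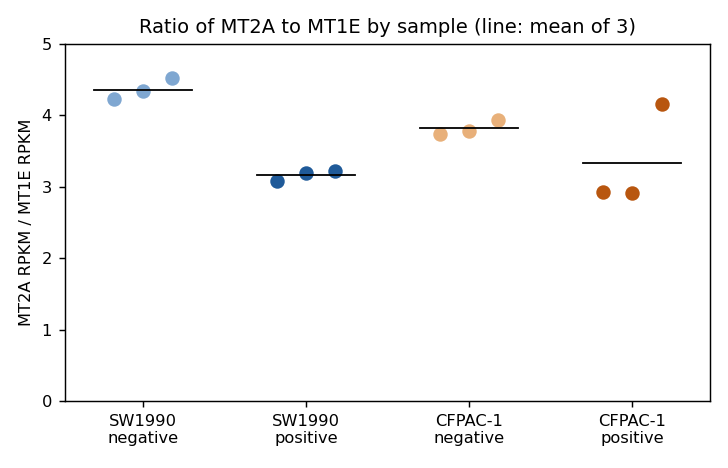
Ratio of *MT2A* RPKM to *MT1E* RPKM in each sample, with the mean of 3 samples as a line. The SW1990 populations are apart (4.23 to 4.52 and 3.08 to 3.22), and 1 of the 3 CFPAC-1 positive samples, replicate 3 at 4.16, lies away from the other two.

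Lines were also compared within a sorted population, with the same samples as above. In negative cells, *MT1M* was at least 1.58-fold lower in SW1990, counting 3 reads per library. Without CFPAC-1 negative replicate 1, which held 8 of its reads, this ratio was 0.986 and no bound was left. It was the 1 member called of 7 (36.9% of all genes were called, 21.9% higher and 15% lower in SW1990). *MT1F* was lower in SW1990 (-0.84, adjusted p = 0.0211 with limma) and *MT1X* higher (0.83, adjusted p = 0.0389), both under 2-fold. By an adjusted p under 0.05 alone 3 of 7 members passed, beside 68.9% of all genes. *MT2A* (0.07, adjusted p = 0.698), *MT1E* (-0.12, adjusted p = 0.600) and *MT1A* (-0.14, adjusted p = 0.660) did not pass, with SEs of 0.15, 0.20 and 0.28, and the *MT2A* estimate was -0.12 after median centring. All genes had a median of 0.19 in this comparison, and 0.006 after that centring.

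In positive cells *MT2A* was lower in SW1990 by 0.83 on the log2 scale (a difference of -0.83, SE 0.15, adjusted p = 0.000512 with limma), or 1.77-fold, and *MT1E* was lower as well (-0.77, SE 0.20, adjusted p = 0.00458). *MT1A* was lower past 2-fold (-1.21, SE 0.28, adjusted p = 0.0024), a call that was lost without SW1990 positive replicate 3 (-0.89), with a pseudocount of 1 (-0.75) and with voom (-1.22, adjusted p = 0.0187). *MT1M* was at least 6.04-fold lower in SW1990, counting 3 reads per library, and at least 3.79-fold lower without CFPAC-1 positive replicate 2. *MT1A* and *MT1M* were the members called of 7, beside 28.5% of all genes, 14.8% higher and 13.7% lower. By an adjusted p under 0.05 alone 5 of 7 passed, *MT1G* with them, beside 62.3% of all genes. *MT1G* (adjusted p = 0.0311 with limma) rested on 0, 5 and 1 reads in CFPAC-1 positive cells. Its samples were not separated (exact permutation p = 0.4), and with a ratio of 0.732 at 3 reads per library no bound was left. *MT1X* (-0.26, adjusted p = 0.517) and *MT1F* (-0.09, adjusted p = 0.798) did not pass. Over the 5 members with reads in every sample, all 5 estimates were below 0 with a median of -0.77, and the median of the 7 tested was -0.83, beside 0.06 for all genes. The SW1990 positive samples enter both this comparison and that within SW1990.

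Genes of metal handling outside the family changed in both directions, and any link between them and *MT2A* was not tested. The metal sensor *MTF1* gave 0.13 in SW1990 (adjusted p = 0.400) and -0.05 in CFPAC-1 (adjusted p = 0.723) by limma. *SLC30A1*, which exports zinc from the cell and is itself a target of MTF1, had an RPKM of 57.6, 58.3 and 53.3 in SW1990 negative and 39.6, 39.1 and 39.6 in SW1990 positive cells. In CFPAC-1 it had 43.4, 52.4 and 53.3 in negative and 33.3, 35.2 and 30.7 in positive cells. It was thus lower in the positive cells of both lines, by -0.51 (adjusted p = 0.00115) and -0.58 (adjusted p = 0.00059) with limma, without reaching 2-fold. *SLC39A10*, a zinc importer known to be repressed through MTF1, was lower in SW1990 positive cells (-0.70, adjusted p = 0.000946), gave 0.26 in CFPAC-1 (adjusted p = 0.107), and differed between the lines (-0.96, adjusted p = 0.00156).

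Of the 3 genes of that list, none was called past 2-fold in either line, and none of 8 zinc exporters tested was. Of 13 zinc importers, 1 was called higher in SW1990 and none in CFPAC-1. It was *SLC39A4*, which takes up zinc at the surface of intestinal cells, at 2.86 and 13.2 RPKM in SW1990 negative and positive cells (2.18, adjusted p = 2.97e-07 with limma). Of 13 genes of copper handling, 1 was called higher and 2 lower in SW1990, and 2 higher and 2 lower in CFPAC-1. Of all genes tested, 12.1% were called in SW1990 and 9.78% in CFPAC-1. The metalloreductase *STEAP4* rose in both lines (4.49 and 1.24), and *CP*, which encodes the copper-carrying ferroxidase ceruloplasmin, fell in both (-1.38 and -2.26). *STEAP3*, another metalloreductase, fell in SW1990 (-1.38) and rose in CFPAC-1 (1.07). The copper pump *ATP7B* was called lower in CFPAC-1 (-1.05). The medians of the importers were -0.02 and 0.26, those of the exporters -0.06 and -0.06, and those of the copper genes -0.35 and 0.20 in SW1990 and CFPAC-1. Those of all genes were -0.04 and 0.05.

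Of 8 tested genes of the list of the glucocorticoid receptor and genes it induces, 1 was called higher and 1 lower in SW1990, and 1 higher and 4 lower in CFPAC-1. The shares of all genes called were 12.1% in SW1990 and 9.78% in CFPAC-1. In CFPAC-1 the transcription factor *KLF9* fell by 3.31 on the log2 scale and the kinase *SGK1* by 1.82. *TSC22D3*, which encodes the leucine zipper protein GILZ, fell by 1.46 and *DUSP1*, a phosphatase, by 1.15. *FKBP5*, which encodes a chaperone of the receptor, rose in CFPAC-1 (1.01) and was lower in SW1990 positive cells (-0.86, adjusted p = 0.000514 with limma). In SW1990 *KLF9* fell by 2.43, and *ERRFI1*, an inhibitor of EGFR signalling, rose by 1.20. The medians of the list were -0.46 in SW1990 and -0.61 in CFPAC-1, beside -0.04 and 0.05 for all genes. A link between these genes and *MT2A* was not tested.

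Of 8 genes of heat shock and metal stress, 1 was called lower in SW1990 and none was called in CFPAC-1. It was *HMOX1*, which encodes haem oxygenase and is induced by cadmium and oxidative stress. Its mean RPKM was 6.97 in SW1990 negative and 1.84 in SW1990 positive cells (-1.87, adjusted p = 0.000143 with limma). In CFPAC-1 it was 1.07 in negative and 2.20 in positive cells (0.93, adjusted p = 0.0125, under 2-fold), and the change differed between the lines (-2.80, adjusted p = 0.00017). The medians of the list were 0.09 and -0.29, beside -0.04 and 0.05 for all genes. Called genes were 12.1% of all genes in SW1990 and 9.78% in CFPAC-1. Of 8 immediate early genes, which cell dissociation can induce, none was called in SW1990 and 1 was lower in CFPAC-1, *ATF3* (-1.06). The medians of these immediate early genes were -0.28 in SW1990 and -0.76 in CFPAC-1. Their summed RPKM was 842.6 to 964.9 in SW1990 negative and 744.2 to 916.1 in SW1990 positive cells. In ascending order it was 1184, 2465 and 2873 in CFPAC-1 negative and 1234, 1445 and 1530 in CFPAC-1 positive cells.

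The genes whose pattern over the 12 samples was nearest to that of *MT2A*, out of 13262 whose mean RPKM was 1 or more, were *OSGIN2*, *SPG20*, *ITGAV*, *WBP5* and *PDGFC*. Nearness was the root mean square difference of log2 values centred on the mean of each gene, which was 0.159 for *OSGIN2*, 0.172 for *SPG20*, 0.180 for *ITGAV*, 0.191 for *WBP5* and 0.191 for *PDGFC*. *ITGAV* encodes an integrin alpha chain and *PDGFC* a platelet-derived growth factor. The closest member was *MT1E* at 0.221, ahead of *MT1A* at 0.395, *MT1F* at 0.537 and *MT1X* at 0.556. *OSGIN2*, the nearest gene, had mean RPKM of 31.9 and 17.7 in SW1990 negative and positive cells, and of 28.8 and 33.0 in CFPAC-1.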

How the data were processed

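RNA-seq values of 2 sorted lines, with 3 samples in each of 4 groups, were re-analysed. The deposited values are RPKM, which the authors made with QuasR by scaling read counts to library size and gene length after alignment to hg19/GRCh37. The annotation counted, the use of strand and the treatment of reads that fit several genes are not given in the sources used here. The paper and the labels name different library kits. Library totals and whole reads were recovered from the RPKM of single-exon genes of known length (GENCODE 44 on GRCh37). They served for read numbers, bounds and voom, and the recovery was tested on simulated data.

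The log2 of RPKM plus 0.1 was fitted for the 16236 genes whose mean RPKM was 0.1 or more, with limma 3.58.1 in R 4.3.3 (group means, eBayes with trend, all 12 samples, 2-sided). Log2 fold changes on this scale understate the change of low genes. Calls needed a change over 2-fold and p under 0.01, as in the study. Whether its p was adjusted is not stated there, and it was taken here as unadjusted. Differences of a change between lines needed an adjusted p under 0.05 (Benjamini-Hochberg, all genes). The study used TCC, which needs counts. Exact permutation tests, sequence comparisons and figures were made with Python 3.11.15, pandas 2.3.3, scipy 1.17.1 and matplotlib 3.10.9.

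All 8 members are named. From the other lists, *MTF1*, *SLC30A1* and *SLC39A10* are named, with at most 4 called genes per list having the largest change, and the 5 genes nearest in pattern to the most abundant member. The glucocorticoid list is an exception, as all its called genes are named, and *DUSP1* and *FKBP5* lie beyond that limit. The members and lists were chosen with earlier results of these data known. Alternatives were pseudocounts of 1 and 0.01, no filter or a mean RPKM of at least 1, median centring, quantile normalization, the groups of a contrast alone, a replicate block, no trend, the other call rule, the ratio of mean RPKM, voom, and each sample left out. Leaving samples out of the *MT2A* to *MT1E* ratio and of the bounds was added after seeing the data.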

Additional observations from a re-analysis of the deposited data

Results flagged for a closer look

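The change of *MT2A* between sorted populations differed between the lines by -0.90 on the log2 scale (SE 0.22, adjusted p = 0.00943 with limma). *MT2A* was lower in the positive cells of SW1990 in 3 of 3 samples against every negative sample (exact permutation p = 0.1, the smallest possible). The CFPAC-1 populations overlapped.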

How the results depend on the processing

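The number of members called past 2-fold with p under 0.01 in SW1990 was 1 and became 0 with a pseudocount of 1, quantile normalization, the groups fitted alone, a replicate block, no trend or voom, and 2 by an adjusted p alone. In CFPAC-1 it was 1 and became 0 with a mean RPKM of at least 1, under which *MT1M* was not tested, or with the groups fitted alone. For the difference between lines it was 2 and became 1 with a pseudocount of 0.01, no filter, a mean of at least 1, median centring, quantile normalization, a replicate block, no trend or voom, and 0 by the 2-fold rule. Between lines it was 1 in negative cells, becoming 0 with a pseudocount of 1 or a mean of at least 1, 2 with median centring or quantile normalization and 3 by an adjusted p alone. In positive cells it was 2, becoming 1 with a pseudocount of 1, a mean of at least 1 or voom, and 5 by an adjusted p alone. With 1 sample left out the counts ran from 0 to 1, 1 to 2, 1 to 3, 1 to 2 and 1 to 3 in that order. The cause of these shifts was not tested where it is not the removal of a gene or sample.

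Estimates that changed sign were near 0. *MT1X* in CFPAC-1 was -0.08 with median centring, -0.068 with quantile normalization and -0.03 with voom, and -0.23 to 0.34 with 1 sample left out. *MT2A* between lines in negative cells was -0.12 with median centring and -0.06 to 0.18 with 1 sample left out. With 1 sample left out, *MT1F* in SW1990 was -0.13 to 0.40, and between lines *MT1A* was -0.335 to 0.015 and *MT1E* -0.26 to 0.003 in negative cells and *MT1F* -0.39 to 0.12 in positive cells. The share of called genes that were higher moved under median centring from 57.7% to 45.8% in CFPAC-1, from 34% to 50% for the difference between lines and from 59.4% to 49.5% between lines in negative cells.

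Same-numbered samples were not treated as pairs, since no source says that a number marks a shared sort. Their deviations from the group means correlated at 0.185, 0.016 and 0.116 in SW1990 and at -0.02, 0.001 and -0.059 in CFPAC-1. Between samples of different number the correlations ran from -0.254 to 0.162 in SW1990 and from -0.033 to 0.042 in CFPAC-1. These values do not decide whether the samples were paired. With the replicate block, the counts of called members were 0 in SW1990, 1 in CFPAC-1 and 1 for the difference, and *MT2A* in SW1990 stayed at -0.79 (adjusted p = 0.0126 with limma). Depth limits *MT1A*, *MT1M* and *MT1G*, with 0 to 33 reads per sample.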
